A study of Mus musculus with 4 samples.

Results

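The 6 genes described here encode proteins of cellular zinc handling: the metallothioneins Mt1 and Mt2, the metal-sensing transcription factor Mtf1, the zinc exporter Slc30a1, and the zinc importers Slc39a6 and Slc39a10. They are 6 rows of a table of 21937 genes, chosen by name with earlier results of these counts known, so their values are given as a description and without a test. RNA was sequenced from CD4+ T cells of the spleen, taken from B6 mice aged 6 weeks and stimulated with PMA and ionomycin, drugs that switch on protein kinase C and calcium signalling. Each genotype gave 1 library: wild type, Itch KO (Itchf/f Cd4cre, in which a floxed Itch allele is removed by Cre under the T cell promoter Cd4), WWP2 KO (WWP2-/-), and a library labelled DKO (Itch and WWP2), whose alleles the labels do not spell out and which is called the labelled double KO below. Itch and WWP2 are ubiquitin ligases of the NEDD4 family. No source used here gives the length of stimulation or how many mice went into each library.

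Free zinc in a cell is set by transport and by binding. Proteins of the ZIP family (genes named Slc39a) bring zinc into the cytosol from outside or from organelles, and those of the ZnT family (genes named Slc30a) carry it out. Metallothioneins are small cysteine-rich proteins that bind zinc and copper. MTF-1, the product of Mtf1, binds metal response elements when zinc rises, and metallothionein genes and Slc30a1 are its best-known targets. Metallothionein genes also respond to glucocorticoids and to oxidative stress. In T cells zinc influx accompanies activation, and the importer made from Slc39a6 has been tied to it.

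Total counts ran from 17130747 to 17990392 per library, so 3 reads correspond to 0.161 to 0.175 CPM (counts scaled to library size with TMM, the trimmed mean of M values). Wwp2 had 1363 reads for wild type, 1332 for the Itch KO, 4 for the WWP2 KO and 1135 for the labelled double KO. The last count goes against the label, so each direction drawn from that library carries this doubt. Itch had 1914 to 2389 reads in all 4 libraries, which checks nothing where a deletion leaves other exons. The 6 T cell markers measured were read in every library. Cd4 had 4069 reads for wild type, 4262 for the Itch KO, 2901 for the WWP2 KO and 9441 for the labelled double KO. Cd3g had 1319, 1505, 1056 and 3100 reads in the same order of libraries, and Cd3e 2066, 2209, 1938 and 3185. By level these genes had the order of Mt1 and Mt2, as did 9.80% of all tested genes, while Cd3d, Lat and Cd28 did not. By the calling rule given below, Cd4 and Cd3g were called higher in the labelled double KO against wild type, beside 12.3% of tested genes. Haemoglobin genes had 0 reads throughout, and neutrophil markers summed to between 0 and 22 reads. B cell markers summed to between 23 and 53 reads and platelet markers to between 24 and 37. In the library order given for Cd4, CD8 T cell markers summed to 129, 276, 112 and 131 reads. Mast cell and basophil markers summed to 431, 189, 495 and 98, of which Kit gave 429, 188, 493 and 85. NK cell markers summed to 88, 39, 57 and 15, of which Klrb1c gave 88, 37, 57 and 12. Markers of macrophages, monocytes and dendritic cells summed to 85 reads for wild type, 149 for the Itch KO, 68 for the WWP2 KO and 414 for the labelled double KO, of which Cd68 gave 52, 103, 56 and 354. Of the other 6 genes of that list in the table, Itgax had 12, 27, 2 and 38 reads in the same order of libraries, which is the order of Mt1 and Mt2. Itgam had 9 to 16 reads, Lyz2 0 to 5, Emr1 0 to 3, Csf1r 0 to 2 and Flt3 0 to 2. The part of any of these other cell types in the results, or of the differing T cell marker levels, was not tested. In bulk RNA, fewer cells of a type and less RNA per cell cannot be told apart.

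The promoters of Mt1, Mt2 and Slc30a1 are shown because these 3 genes had the same order of libraries and are textbook targets of the metal response element. The sequences are RefSeq's on GRCm38.p6, which is not the mm9 build of the counts. Each runs from 250 bases before the start site to 30 bases after it, on the plus strand. Capitals mark matches to TGCACNC or TGCGCNC on either strand, both together taken as the element's core; the other letters are lower case. The stretches are chr8:94178839-94179118 for Mt1, chr8:94172368-94172647 for Mt2 and chr1:191906531-191906810 for Slc30a1.
Mt1: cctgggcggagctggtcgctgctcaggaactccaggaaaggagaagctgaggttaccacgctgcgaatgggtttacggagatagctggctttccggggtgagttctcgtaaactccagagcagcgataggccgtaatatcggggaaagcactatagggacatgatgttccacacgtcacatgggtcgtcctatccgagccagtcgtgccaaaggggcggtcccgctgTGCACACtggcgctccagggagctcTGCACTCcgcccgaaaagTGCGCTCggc
Mt2: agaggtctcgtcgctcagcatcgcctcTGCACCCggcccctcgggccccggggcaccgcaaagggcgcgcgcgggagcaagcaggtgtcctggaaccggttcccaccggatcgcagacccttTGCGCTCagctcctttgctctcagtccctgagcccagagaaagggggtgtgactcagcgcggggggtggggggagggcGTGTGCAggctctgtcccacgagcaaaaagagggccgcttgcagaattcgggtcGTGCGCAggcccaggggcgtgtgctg
Slc30a1: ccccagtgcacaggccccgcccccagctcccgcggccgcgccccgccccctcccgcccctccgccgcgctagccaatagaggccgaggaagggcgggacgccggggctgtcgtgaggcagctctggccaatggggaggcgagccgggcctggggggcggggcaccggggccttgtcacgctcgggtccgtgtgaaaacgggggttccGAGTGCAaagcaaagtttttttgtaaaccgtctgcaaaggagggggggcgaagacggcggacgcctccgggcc

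In the full windows, which go on to 50 bases after the start site, Mt1 had 3 matches, Mt2 had 4 and Slc30a1 had 2. No match overlapped another. The Mt1 matches began at -23, 3 and 21 relative to the RefSeq start site, all on the strand of the gene. Positions and windows here hold for the RefSeq start sites only, and other start sites were not examined. In Mt2 they began at -223, -128, -50 and 5, the last 2 on the opposite strand. The Slc30a1 matches, both on the opposite strand, began at -43 and 31, and the second lies past the printed stretch. Of 32851 promoter windows of 300 bases, 25.7% held at least 1 match, 7.11% at least 2, 1.97% at least 3 and 0.517% at least 4. The Mtf1 window and both Slc39a10 windows held 0 matches, which says only that these letters are not there. Matches were not limited to genes with the order of Mt1. Slc30a4, the exporter gene with the lowest ratio to wild type in the labelled double KO, had 3 matches, Slc30a10, which did not reach the minimum level, had 3, and Slc30a2 had 2. A match describes letters and is not a binding site.

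Metallothionein transcripts differed the most of the 6 genes, up to 113-fold between the lowest and the highest library. Mt1, the more abundant of the pair in 3 of 4 libraries, had 40 reads for wild type, 88 for the Itch KO, 6 for the WWP2 KO and 735 for the labelled double KO. In TMM-scaled levels this was 2.31 CPM (95% Poisson interval 1.65 to 3.14), 5.07 CPM (4.07 to 6.25), 0.350 CPM (0.128 to 0.762) and 39.5 CPM (36.7 to 42.5), in that order. No 2 of these intervals overlap, but the share of all tested genes with 4 separate intervals is not given here. The intervals cover counting error only. Since every genotype has a single library, replicate spread is unknown for every value here.

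Mt2, whose gene lies next to Mt1 in the RefSeq table, followed the same order. It had 28 reads for wild type, 66 for the Itch KO, 8 for the WWP2 KO and 282 for the labelled double KO. The levels were 1.61 CPM (1.07 to 2.33), 3.81 CPM (2.94 to 4.84), 0.467 CPM (0.201 to 0.919) and 15.2 CPM (13.5 to 17.1). Again none of the 4 intervals overlap, with no share over all genes to set beside this. Mt1 and Mt2 are close paralogs, and how reads that fit both were counted is unknown, so their separate values are less certain than their sum. Mt3, the metallothionein best known from brain, had 1, 6, 0 and 7 reads in the same order of libraries, and Mt4 had 0 reads in all 4. For a count of 0 the worth of 3 reads is 0.161 to 0.175 CPM, and the upper end of the 95% Poisson interval used for the other levels is 0.198 to 0.215 CPM.

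**Figure D1:**
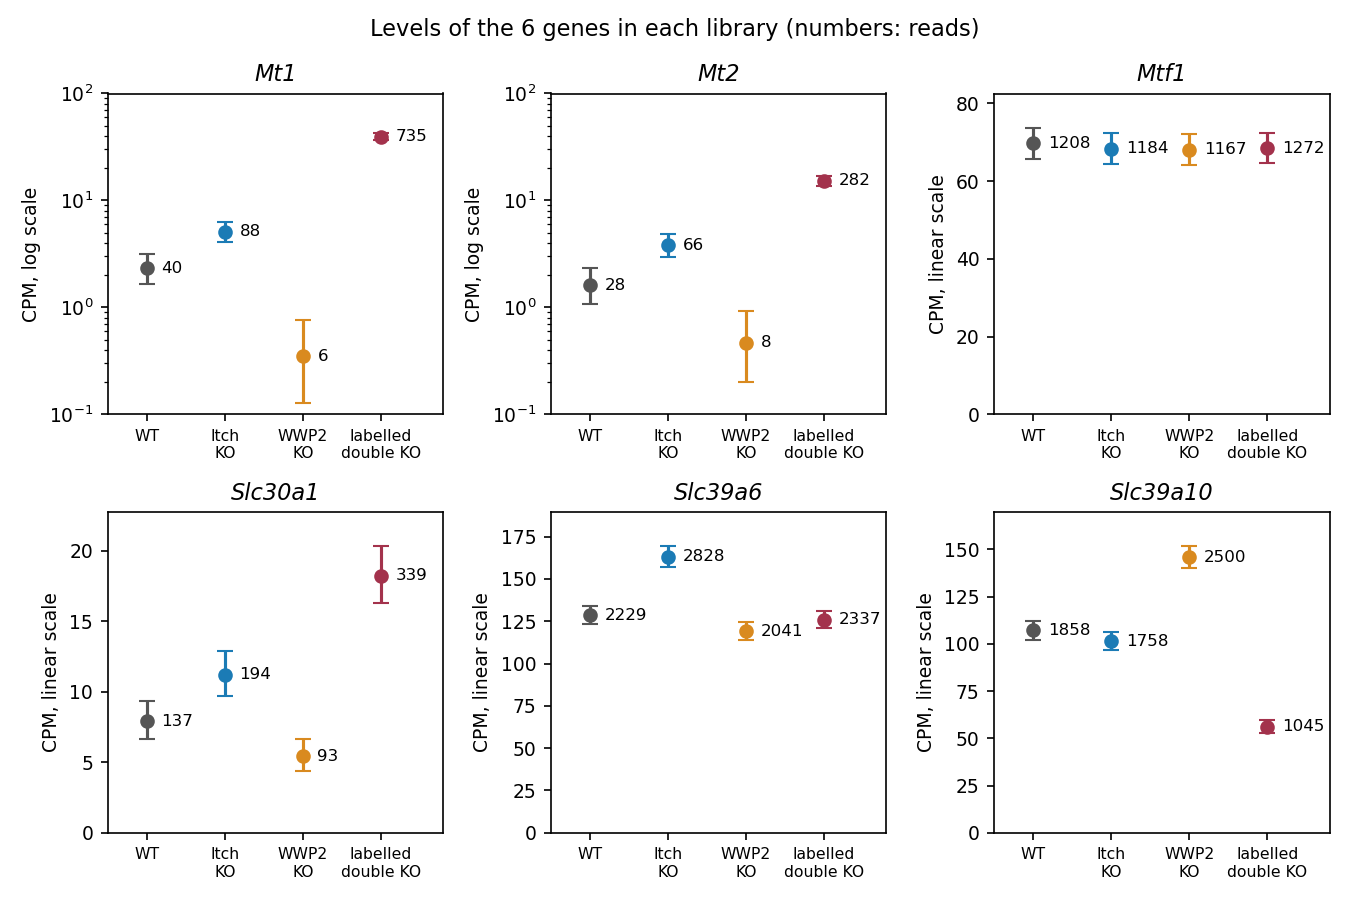
Level of each of the 6 genes in the 4 libraries, in TMM-scaled CPM, on a log axis for Mt1 and Mt2 and a linear axis for the rest; points are single libraries, bars are exact 95% Poisson intervals and the numbers are reads. Mt1 spans 6 to 735 reads and Mt2 8 to 282, Slc30a1 follows the same order, Mtf1 stays between 1167 and 1272 reads, and Slc39a10 runs the other way.

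Mtf1 itself was flat. It had 1208 reads for wild type, 1184 for the Itch KO, 1167 for the WWP2 KO and 1272 for the labelled double KO, or 69.7, 68.3, 68.1 and 68.4 CPM. All 4 intervals overlap, from 64.2 to 73.7 CPM at their outer ends. Against wild type its fold was 0.980 in Itch KO (95% exact conditional binomial interval 0.904 to 1.06), 0.977 in WWP2 KO (0.901 to 1.06) and 0.982 in the labelled double KO (0.907 to 1.06). Counts of RNA say nothing of the amount or activity of the MTF-1 protein.

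Slc30a1 encodes ZnT1, the exporter of the plasma membrane. It had 137 reads for wild type, 194 for the Itch KO, 93 for the WWP2 KO and 339 for the labelled double KO. The levels were 7.90 CPM (6.63 to 9.34), 11.2 CPM (9.67 to 12.9), 5.42 CPM (4.38 to 6.65) and 18.2 CPM (16.3 to 20.3). The order of the libraries was that of Mt1 and Mt2 on a narrower scale. The wild-type and WWP2 KO intervals overlap at their ends, while the others stand apart. Of all 9926 genes with a mean of at least 2 CPM over the 4 libraries, 9.80% had this order, WWP2 KO lowest, then wild type, Itch KO and the labelled double KO.

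The importer genes did not follow that order. Slc39a6, which encodes ZIP6, had 2229 reads for wild type, 2828 for the Itch KO, 2041 for the WWP2 KO and 2337 for the labelled double KO. At 163 CPM (157 to 169) Itch KO stood above the other libraries, which ranged from 119 to 129 CPM. Slc39a10, which encodes the close relative ZIP10, had 1858, 1758, 2500 and 1045 reads in the same order of libraries. Its level was highest in WWP2 KO, at 145.8 CPM (140.2 to 151.6), and lowest in the labelled double KO, at 56.2 CPM (52.9 to 59.7). Wild type and Itch KO, at 107.2 and 101.4 CPM, had overlapping intervals. Slc39a10 thus ran opposite to the metallothionein genes at both ends of the range.

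Per kilobase of the principal transcript in GENCODE, the levels can be set beside each other. In wild type the order was Slc39a6 at 33.1 CPM per kb, Slc39a10 at 19.5, Mtf1 at 9.13, Mt1 at 4.2, Mt2 at 3.16 and Slc30a1 at 1.51. In the labelled double KO Mt1 came first, at 72.0 CPM per kb, before Slc39a6 at 32.4, Mt2 at 29.7, Slc39a10 at 10.2, Mtf1 at 8.97 and Slc30a1 at 3.48. In WWP2 KO both metallothioneins stood under Slc30a1, Mt1 at 0.637 and Mt2 at 0.913 against 1.03 CPM per kb. The transcripts of Mt1 (549 bases) and Mt2 (511 bases) are short, and the annotation behind the counts is not given in the sources used here, so these per-length levels are approximate.

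In Itch KO against wild type, a comparison that asks what loss of Itch does, both metallothioneins were higher and the other 4 genes stayed under 2-fold. A gene was called when its log2 ratio, with a prior count of 2, reached 1 in either direction and the counting interval of its fold excluded 1, among genes with a mean of at least 2 CPM. By this rule 2 of the 6 genes were called higher and 0 lower, beside 4.89% of all 9926 tested genes called higher and 0.846% called lower. These were Mt1, 2.20-fold higher (1.5 to 3.28), and Mt2, 2.36-fold higher (1.49 to 3.81). Slc30a1 was at 1.42-fold (1.13 to 1.77) and Slc39a6 at 1.27-fold (1.20 to 1.34), intervals that exclude 1 without reaching the 2-fold rule. Slc39a10 was at 0.946-fold (0.886 to 1.01). The median log2 ratio of the 6 genes was 0.42, beside -0.02 over all tested genes. Mt2 passed the minimum level only through the labelled double KO: its mean was 5.26 CPM over 4 libraries and 1.94 CPM without that one, so that 1 of the 6 genes, Mt1, would be called in its absence.

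In WWP2 KO against wild type both metallothioneins were lower. Here 2 of the 6 genes were called lower and 0 higher, beside 0.161% of tested genes lower and 0.282% higher. Mt1 was 6.59-fold lower (2.78 to 19.0), on 6 and 40 reads, and held rank 2 from the bottom of the 9926 genes by log2 ratio, next to Wwp2 itself. Mt2 was 3.46-fold lower (1.54 to 8.79), on 8 and 28 reads, at rank 6. These ranks rest on few reads and, since these genes were chosen with the values known, only describe them. Slc30a1 stood at 0.687-fold (0.522 to 0.900), at rank 135 from the bottom, and Slc39a6 at 0.926-fold (0.872 to 0.984). Slc39a10 stood at 1.36-fold (1.28 to 1.45), at rank 325 from the top. The median log2 ratio of the 6 genes was -0.32, beside -0.01 over all tested genes. Without the labelled double KO in the mean, Mt2 was under the minimum level and Mt1 was the 1 gene called.

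Mt1, Mt2 and Wwp2 all lie on chromosome 8 in the RefSeq table of GRCm38.p6, used here only for gene order. Between the metallothionein genes and Wwp2 it lists 269 genes, of which 67 were tested in these libraries. In WWP2 KO against wild type 0 of the 67 were called higher and 0 lower. Over all tested genes the shares were 0.282% and 0.161%, so 0 of 67 is near the background. The 67 genes had a median log2 ratio of -0.01. They ranged from -0.90 for Herpud1, a gene of the endoplasmic reticulum stress response, to 0.80 for Sntb2, a syntrophin gene. Nup93, the nuclear pore gene next after Mt1, was at 0.937-fold (0.873 to 1.01). On the other side of the pair, Bbs2, a gene of the primary cilium, was at 0.95-fold (0.661 to 1.36) and Ogfod1 at 0.994-fold (0.916 to 1.08). Some close neighbours were lower in WWP2 KO short of the 2-fold rule. Herpud1, next but one to Mt1 among tested genes, was at 0.534-fold (0.501 to 0.569), and Nlrc5, a regulator of MHC class I genes a little further on, at 0.639-fold (0.615 to 0.663). Herpud1 and Nlrc5 thus shared the direction of Mt1 and Mt2 in this comparison, but not in the other libraries. Against wild type Herpud1 was at 0.645-fold in Itch KO and 0.498-fold in the labelled double KO. Nlrc5 was at 0.933-fold and 0.492-fold there, while Mt1 and Mt2 were higher in both libraries. In WWP2 KO the fold interval of Mt1 (0.0526 to 0.360) lies below those of Herpud1 and Nlrc5, while that of Mt2 (0.114 to 0.651) overlaps both.

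**Figure D2:**
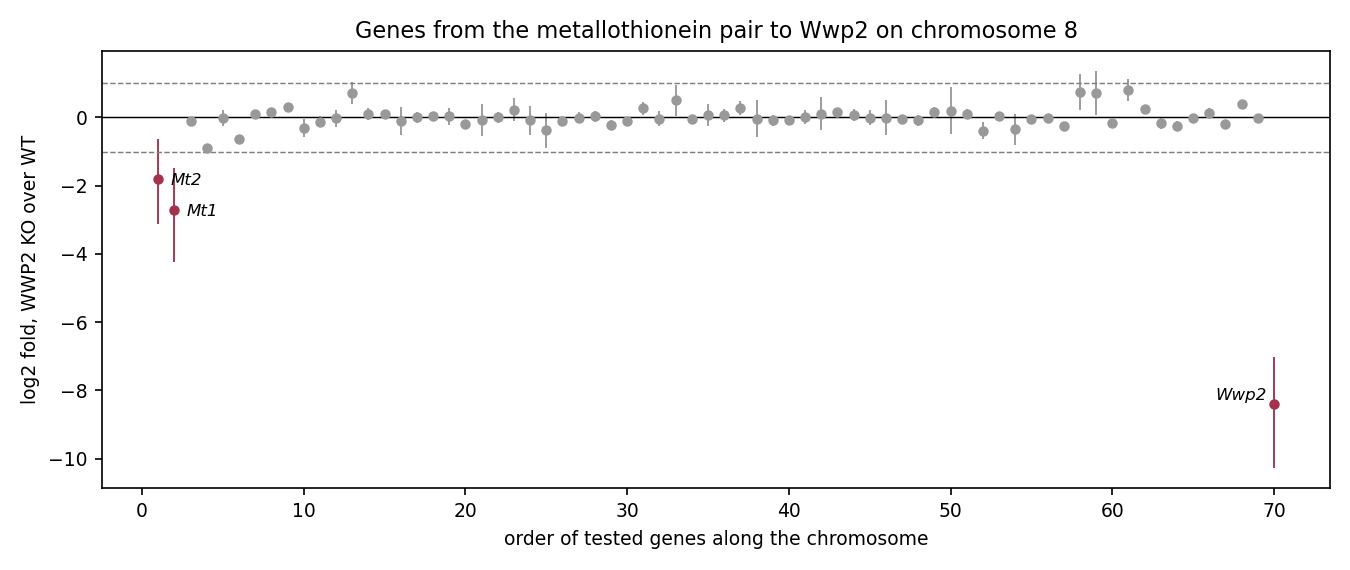
Log2 fold of WWP2 KO over wild type (CPM without a prior count) for each tested gene on chromosome 8 from Mt2 and Mt1 to Wwp2, in RefSeq order, with 95% counting intervals; dashed lines mark 2-fold. Mt1, Mt2 and Wwp2 (red) lie below the lower line. Of the 67 genes between them (grey) 0 were called, beside 0.282% of all tested genes called higher and 0.161% lower.

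The labelled double KO was set against wild type to ask what the joint loss does, with the reservation that it held Wwp2 reads. Of the 6 genes 3 were called higher and 0 lower, beside 12.3% of tested genes higher and 6.34% lower. Mt2 is among these 3, but it passed the minimum level only through this library, where it was high (mean 1.94 CPM without it). Mt1 was 17.1-fold higher (12.5 to 24.2) and Mt2 9.40-fold higher (6.36 to 14.4), at ranks 114 and 244 from the top of 9926. Many other genes had ratios as high in this library. Slc30a1 was 2.31-fold higher (1.89 to 2.84). Mtf1 and Slc39a6, at 0.982-fold and 0.978-fold (0.923 to 1.04), had intervals that include 1. Slc39a10 was 1.91-fold lower (1.77 to 2.06), at a log2 ratio of -0.93, just short of the rule. The 6 genes had a median log2 ratio of 0.58, beside -0.03 over all tested genes.

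Set against the single knockouts, the labelled double KO kept its high metallothionein level. Over Itch KO, Mt1 was 7.79-fold higher (6.24 to 9.84) and Mt2 3.99-fold (3.04 to 5.30), so that 2 of the 6 genes were called higher and 0 lower, beside 9.18% and 5.16% of tested genes. Over the same library Slc30a1 was at 1.63-fold (1.36 to 1.96), Slc39a6 at 0.771-fold (0.730 to 0.815) and Slc39a10 at 0.555-fold (0.513 to 0.599). Over WWP2 KO, 3 of the 6 genes were called higher and 1 lower, beside 11.6% and 6.05%. Mt1 was 113-fold higher (51.7 to 308.9), Mt2 32.5-fold (16.3 to 76.1) and Slc30a1 3.36-fold (2.67 to 4.28), while Slc39a10 was 2.59-fold lower (2.41 to 2.79). In both comparisons the call of Mt2 rests on a minimum level that it passed only through the labelled double KO. The comparisons with wild type share the wild-type library, and all 3 that involve the labelled double KO share it, so they are not independent of each other.

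**Figure D3:**
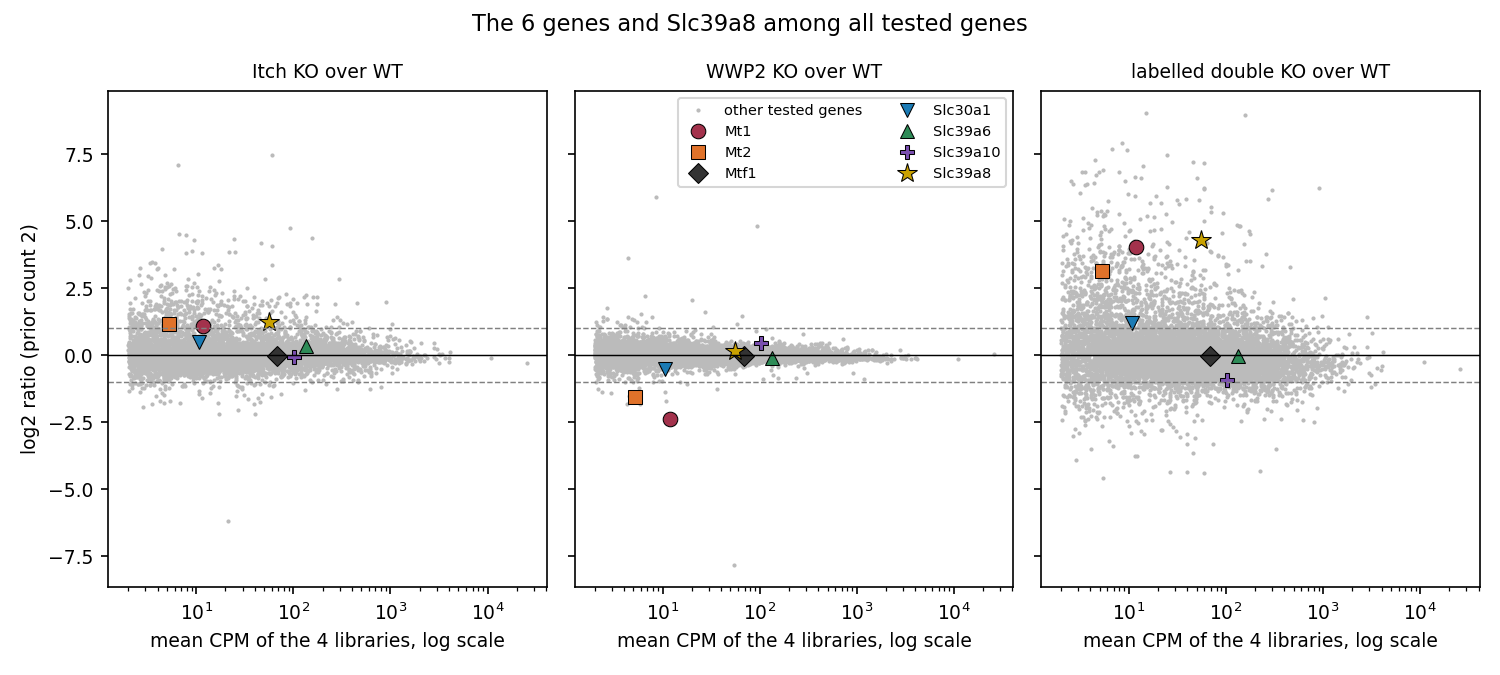
Log2 ratio to wild type (prior count of 2) against mean level over the 4 libraries (CPM, log axis) for the 9926 tested genes (grey), with the 6 genes and Slc39a8 marked; dashed lines mark 2-fold. Mt1 and Mt2 lie at the lower edge of the cloud in WWP2 KO (-2.38 and -1.57) and inside a wide cloud in the labelled double KO (4.03 and 3.14).

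The balance within each related pair was also compared, since a ratio of genes within a library does not depend on scaling between libraries. Mt1 gave 58.8% of the reads of Mt1 and Mt2 together in wild type (exact 95% binomial interval 46.2 to 70.6, 68 reads) and 57.1% in Itch KO (48.9 to 65.1, 154 reads). It gave 42.9% in WWP2 KO (17.7 to 71.1, 14 reads) and 72.3% in the labelled double KO (69.4 to 75.0, 1017 reads). The last interval lies above that of Itch KO and overlaps the other two; overlap of separate intervals does not show that shares are alike, and the differences were not tested. Slc39a6 gave 54.5% of the reads of Slc39a6 and Slc39a10 in wild type (53.0 to 56.1) and 61.7% in Itch KO (60.2 to 63.1). It gave 44.9% in WWP2 KO (43.5 to 46.4) and 69.1% in the labelled double KO (67.5 to 70.7). These 4 intervals do not overlap, but they rest on 3382 to 4586 reads per library, and no share over other gene pairs is given here. The order of the libraries is that of the metallothionein levels and the reverse of that of the Slc39a10 levels already given. ZIP6 and ZIP10 are known to form a complex with each other.

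**Figure D4:**
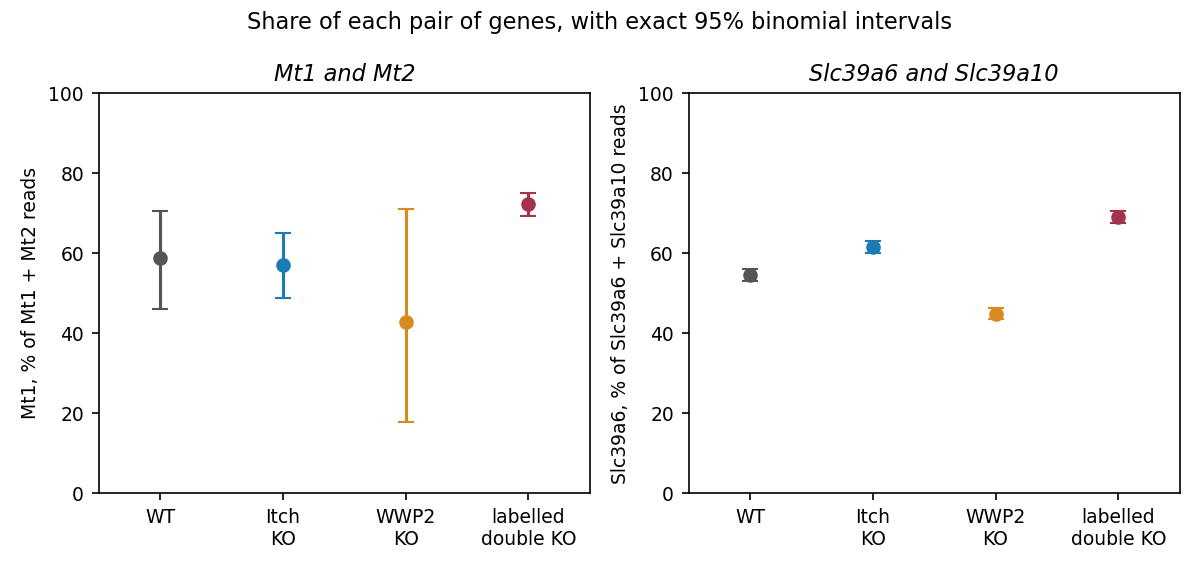
Share of Mt1 in the reads of Mt1 and Mt2 (left) and of Slc39a6 in the reads of Slc39a6 and Slc39a10 (right), in percent, for each library, with exact 95% binomial intervals. The Slc39a6 share runs from 44.9% in WWP2 KO to 69.1% in the labelled double KO with no overlap, on 3382 to 4586 reads per library. No other gene pairs are set beside it. The Mt1 share rests on 14 reads in WWP2 KO.

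The other zinc genes give the setting. A list of the 4 metallothionein, 10 ZnT and 14 ZIP genes held 28 genes of the table, of which 19 were tested and 4 had 0 reads everywhere; 14 of the tested genes are not among the 6. In Itch KO against wild type 1 of these 14 was called higher and 0 lower, in WWP2 KO 0 and 0, and in the labelled double KO 2 and 0. Over all tested genes 4.89% were called higher and 0.846% lower in Itch KO, 0.282% and 0.161% in WWP2 KO, and 12.3% and 6.34% in the labelled double KO, so 2 of 14 is near the background. Their median log2 ratios were 0.02, 0.01 and 0.20, beside -0.02, -0.01 and -0.03 over all tested genes.

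Among the ZIP genes Slc39a8 stood out. It encodes ZIP8, an importer of zinc and manganese. It had 158 reads for wild type, 379 for the Itch KO, 176 for the WWP2 KO and 3394 for the labelled double KO, or 9.11, 21.9, 10.3 and 182.6 CPM. Against wild type it was 2.40-fold higher in Itch KO (1.99 to 2.91) and 20.0-fold higher in the labelled double KO (17.1 to 23.7). In WWP2 KO it was at 1.13-fold (0.904 to 1.41), with none of the low level seen for Mt1 and Mt2 there. Per kilobase it went from 2.58 CPM in wild type to 51.7 in the labelled double KO, second among the ZIP genes after Slc39a7, the importer of the endoplasmic reticulum, at 85.3.

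Slc39a4, the intestinal zinc importer gene, had 636, 712, 568 and 1517 reads in wild type, the Itch KO, the WWP2 KO and the labelled double KO. It had the library order of Mt1, Mt2 and Slc30a1 and was 2.23-fold higher in the last library than in wild type (2.03 to 2.44). Slc39a13, the gene for an importer of the secretory pathway, had 101, 94, 128 and 209 reads and was called over Itch KO, at 2.07-fold (1.62 to 2.68), but not over wild type, at 1.93-fold (1.52 to 2.47). Of the ZIP genes, the lowest ratio to wild type in the labelled double KO was that of Slc39a10. Of the ZnT genes it was that of Slc30a4, at 0.536-fold (0.487 to 0.590). In this library Slc30a1 was the 1 exporter gene called. Slc30a5, which encodes a ZnT of the secretory pathway and had the highest level of the exporters per kilobase, was at 0.850-fold (0.801 to 0.902).

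**Figure D5:**
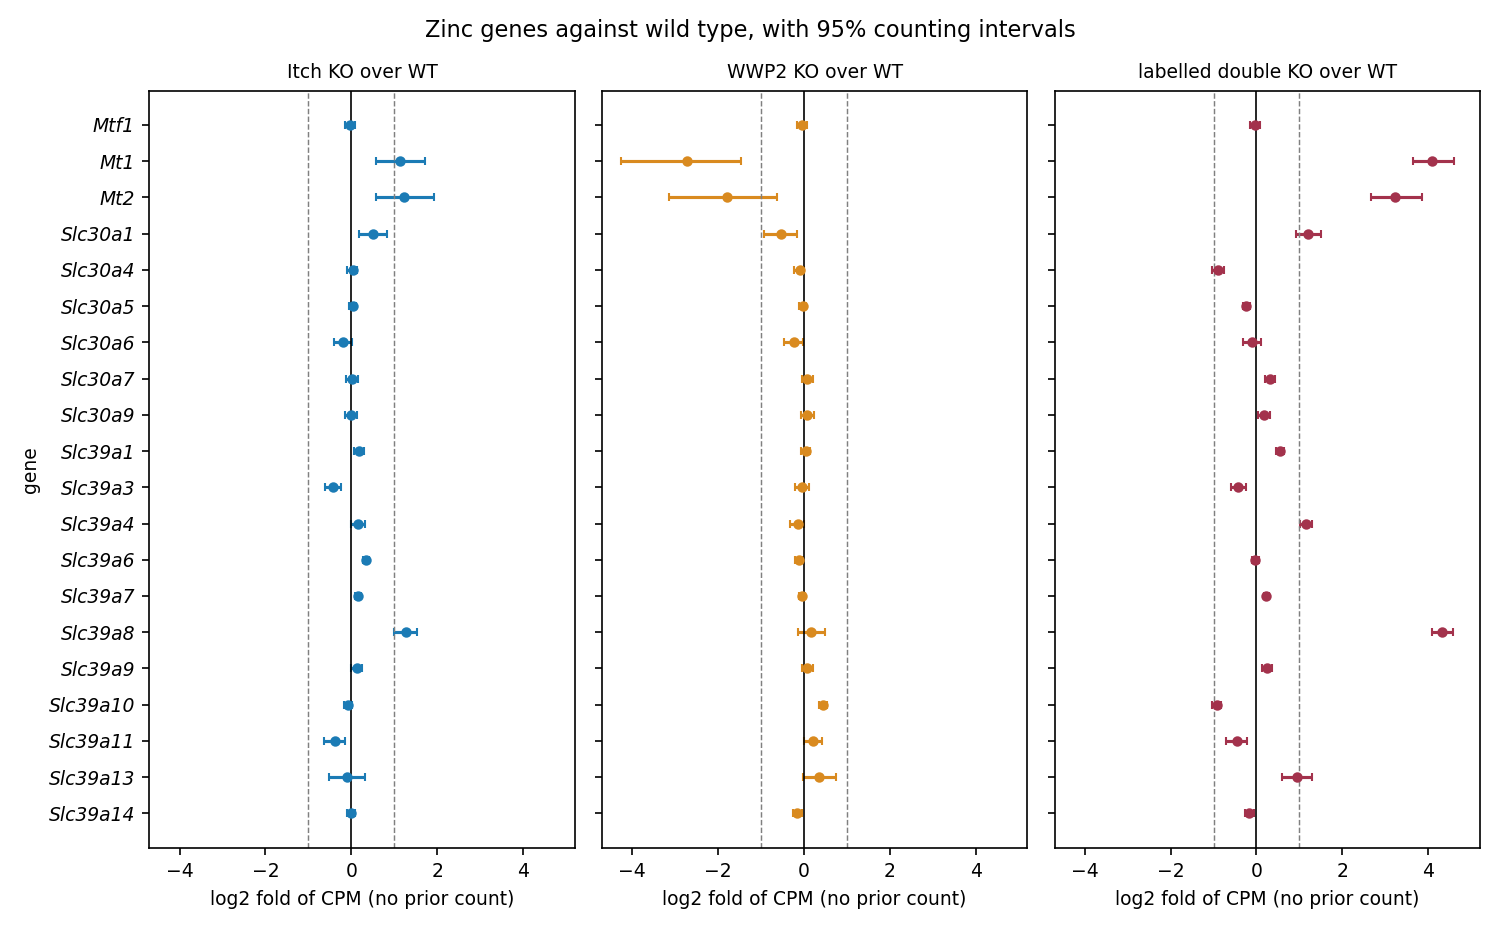
Log2 fold to wild type (CPM without a prior count) of Mtf1 and the 19 tested metallothionein, ZnT and ZIP genes in each of the other 3 libraries; points are single comparisons of 2 libraries, bars are exact 95% counting intervals and dashed lines mark 2-fold. Mt1 and Mt2 are the 2 genes below the lower line in WWP2 KO, and Mt1, Mt2, Slc30a1, Slc39a4 and Slc39a8 are above the upper line in the labelled double KO.

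For each of the 6 genes the nearest patterns were sought among 9224 named, tested genes, by the Euclidean distance between log2 levels (prior count of 2) centred over the 4 libraries. Nearest to Mt2 were Anxa1, the annexin A1 gene, at a distance of 0.42, Mxd3, a gene of the MAX dimerization network, at 0.56, and Cd7, a gene of lymphocyte surface protein CD7, at 0.58. Anxa1 had 8 reads for wild type, 24 for the Itch KO, 3 for the WWP2 KO and 115 for the labelled double KO. Nearest to Mt1 were Cd7 (1.14), Adam8, a surface metalloprotease gene (1.16), and Mt2 (1.21). Adam8 had 283, 1072, 166 and 8687 reads in the same order of libraries. Slc30a1 lay nearest to the tubulin gene Tubb6 (0.13), to Traip (0.16) and to Ccdc92 (0.20), and Tubb6 had 94, 133, 69 and 224 reads.

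The remaining patterns had closer neighbours. Slc39a10 was nearest to Fam123b (0.10), Zfp455 (0.10) and the urea transporter gene Slc14a1 (0.11), the last with 566, 567, 723 and 313 reads in wild type, the Itch KO, the WWP2 KO and the labelled double KO. Slc39a6 was nearest to Rab11fip1 (0.05) and Mina (0.05), and Mina had 1660, 2069, 1454 and 1665 reads. Mtf1, being flat, lay within 0.03 of Mre11a, Egln1 and Fam100a. With 4 libraries a distance describes likeness only, and low counts such as those of Anxa1 make it less certain. Anxa1 (mean 2.05 CPM) and Mxd3 (mean 2.24 CPM) were under 2 CPM in every library but the labelled double KO. Both therefore passed the minimum level only through that library.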

How the data were processed

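RNA sequencing counts were analysed for 4 libraries, 1 per genotype. The authors deposited raw counts of reads per gene symbol, not normalized. Per the submitters' processing notes the tools were TopHat 1.4.1, Bowtie 1.0.0 and HTSeq 0.7.1, with build mm9. Annotation, strand setting and read length: not given in the sources used here, so reads of a gene and of an overlapping antisense gene cannot be told apart.

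Counts were scaled with edgeR 4.0.16 (TMM factors 0.983 to 1.03) in R 4.3.3. Ratios, exact conditional binomial and Poisson 95% intervals, and binomial intervals of shares were computed in Python 3.11.15 with scipy 1.17.1. Without molecular identifiers, reads need not be independent molecules, so intervals cover counting error only. The calling rule ran over all genes. No p-value was computed. Neighbours on chromosome 8 were chosen for their place, except that Herpud1, Sntb2 and Nlrc5 were singled out after their values were seen.

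The 6 genes, the lists and the rule for named genes (the 6 genes, list genes that passed the size rule or had the highest or lowest ratio to wild type, and the 3 nearest patterns per gene, of which 1 is not reported here) were chosen with earlier results of these data known. Promoters came from RefSeq (GRCm38.p6) for 5 of the 6 genes, and lengths from GENCODE principal transcripts. Alternatives were DESeq2 1.42.0 size factors, total counts, no minimum level, a minimum of 10 CPM, prior counts of 0.5 and 5, and a 1.5-fold threshold. Scaling without the labelled double KO, and the same alternatives for the wider zinc list and for Slc39a4, Slc39a8 and Slc39a13, were added after seeing the data.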

Additional observations from a re-analysis of the deposited data

Results flagged for a closer look

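For 4 of the 6 genes the step that goes with the WWP2 label pointed one way where Itch was intact and the other way where the label says Itch was deleted, each beyond its counting interval. Of all 9926 tested genes, 9.18% had such opposite steps: 4.05% in the direction of Mt1, Mt2 and Slc30a1 and 5.13% in that of Slc39a10. Mt1 had a log2 ratio of -2.38 in WWP2 KO over wild type and of 2.93 in the labelled double KO over Itch KO. For Mt2, which was among the tested genes only through the labelled double KO, the values were -1.57 and 1.96. For Slc30a1 they were -0.53 and 0.70. Slc39a10 went the opposite way, with 0.44 and -0.85. The difference between the steps was not tested, since each is 1 library against 1, and the labelled double KO held 1135 Wwp2 reads, so the label behind the second step is in doubt.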

How the results depend on the processing

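All 198 recomputed log2 ratios, of the 6 genes and of Slc39a4, Slc39a8 and Slc39a13, stayed within the counting interval of the reported fold. Scaling to total counts still took Slc39a13 past the 2-fold rule against wild type (1.01, reported 0.94) and Slc39a4 past it against Itch KO (1.06, reported 0.99) in the labelled double KO. Of the recomputed counts of called genes, 63 stayed within 1.5 times, and 11 did not. Mt1, Mt2, Slc30a1 and Slc39a10 kept their sign under every alternative, and near-zero ratios of Mtf1 (-0.02 to 0.07 against Itch KO) and Slc39a6 (-0.04 to 0.04 against wild type) in the labelled double KO did not. A minimum of 10 CPM removed Mt2, which left 1 of the 6 genes called in Itch KO and 1 in WWP2 KO against wild type, and 1 in the labelled double KO against Itch KO (main 2 each). Leaving the labelled double KO out of scaling and mean, added after seeing the data, likewise left 1 gene called in Itch KO and 1 in WWP2 KO. For the 28 zinc genes, WWP2 KO against wild type then had 1 called under either setting (main 2), and a minimum of 10 CPM left 2 in the labelled double KO against Itch KO (main 4). A 1.5-fold threshold called 4 of the 6 genes in the labelled double KO against Itch KO (main 2). It called 8 zinc genes there (main 4) and 8 against wild type (main 5). Over all genes in WWP2 KO, 28 were called higher and 16 lower, but 117 and 56 without a minimum level, 6 and 7 at 10 CPM, and 118 and 75 at 1.5-fold. Elsewhere over all genes, higher and lower calls were 485 and 84 in Itch KO against wild type, but 233 and 45 at 10 CPM, 720 and 183 without a minimum and 872 and 436 at 1.5-fold. For the labelled double KO against wild type, Itch KO and WWP2 KO they were 1220 and 629, 911 and 512, and 1155 and 601. At 10 CPM these became 666 and 427, 452 and 344, and 625 and 392, at 1.5-fold 2033 and 1740, 1933 and 1435, and 1950 and 1665, and without a minimum 1924 and 826, 1421 and 702, and 1780 and 850. Scaling to total counts moved the median of all genes in the labelled double KO against Itch KO from 0.03 to 0.11. No paired analysis was possible because each genotype has 1 library and the libraries share only the number 1. Mt1 and Mt2 in WWP2 KO rest on 6 and 8 reads, so those folds have wide counting intervals.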

Other observations

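Lists of copper, iron, oxidative and glucocorticoid response genes were read in the same way. Over all tested genes, 12.3% were called higher and 6.34% lower in the labelled double KO against wild type, 4.89% and 0.846% in Itch KO, and 0.282% and 0.161% in WWP2 KO. The oxidative response list was built around the factor NRF2 and includes its own gene, Nfe2l2, and its regulator Keap1. Of this list 11 genes were tested. Srxn1, which encodes sulfiredoxin, had 132 reads for wild type, 300 for the Itch KO, 80 for the WWP2 KO and 1476 for the labelled double KO. The haem-degrading enzyme gene Hmox1 had 139, 215, 89 and 965 reads. Both thus had the library order of Mt1, Mt2 and Slc30a1, as did Gclm, Txnrd1 and Gsr on a narrower scale. Nfe2l2, Keap1, Gclc, Slc7a11, Prdx1 and Txn1 did not. Of all tested genes, 9.80% had this order. Srxn1 was 10.4-fold higher (8.72 to 12.6) and Hmox1 6.48-fold higher (5.42 to 7.79) in the labelled double KO than in wild type, the 2 genes of the list called higher there. Slc7a11, the cystine transporter gene, was the 1 called lower, at 7 reads beside 203 for wild type. The list median was 0.29 on the log2 scale, beside -0.03 over all tested genes. In Itch KO Srxn1 was called higher and Slc7a11 lower, and in WWP2 KO 0 genes of the list were called.

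Of 8 copper genes tested, Atox1, the gene of a copper chaperone, was the 1 called in the labelled double KO against wild type, 2.54-fold higher (2.15 to 3.01). Ccs had the lowest copper ratio there, at a log2 value of -0.56. Of 11 iron genes Hmox1, which is also in the oxidative list, was the 1 called, and Slc25a37, a mitochondrial iron importer gene, had the lowest ratio, -0.76. In Itch KO and in WWP2 KO 0 copper and 0 iron genes were called against wild type. Of 10 glucocorticoid response genes, 4 were called higher (Tsc22d3, Sgk1, Zfp36 and Il7r) and 2 lower (Klf9 and Zbtb16) in the labelled double KO, and 0 in Itch KO or WWP2 KO. Tsc22d3, which encodes GILZ, was 2.12-fold higher (1.83 to 2.45) and Zbtb16 was at 0.135-fold (0.0942 to 0.188).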
